A study of Mus musculus with 9 samples.

Results

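Macrophages and their blood precursors, monocytes, were followed here through 31 marker genes measured in whole quadriceps femoris, a thigh muscle of the mouse. A gene entered the set when it stood on a list of macrophage and monocyte markers and the platform annotation gave it a probe set of its own, and where a gene had several, the one brightest on average was read. All 31 genes had such a probe set, out of 18193 genes on the array. Of these, 25 passed the filter for testing (a log2 value above 5 in at least 3 arrays) and 6 did not, against 9697 genes tested in all.

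The mice were female and of a C57Bl/6 line labelled HT transgenic, in which withdrawal of doxycycline turns on a self MHC class I protein in skeletal muscle. In the published line the drug-controlled activator is driven by the muscle creatine kinase promoter, so that the transgene belongs to muscle fibres and not to the leukocytes described here. Control mice (n = 3) stayed on doxycycline throughout and were killed at 35 days of age. Early mice (n = 3) lost the drug at 21 days and, like the controls, were killed at 35 days, which gave them 2 weeks of expression. In the late group (n = 3) the drug was withdrawn at 35 days and were killed at 50 days, so these mice were older than the controls and what age did cannot be told apart from what induction did. The protocol calls the controls single transgenic littermates, whereas the strain label is the same for every animal, so a difference in genotype cannot be told apart from induction either. Both induced groups were set against the same 3 controls. Levels are log2 values per array or group means ± SD (n = 3), and differences are in log2 units ± SE.

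Resident macrophages lie between the fibres of healthy muscle, and monocytes enter from the blood when fibres are damaged. There they engulf debris through Fc, scavenger and lectin receptors, degrade it in lysosomes, and release factors that support regeneration. Survival and growth of the lineage depend on signalling through the receptor encoded by Csf1r. Few of the genes are private to the lineage: Lgals3, Gpnmb and Ctsk are also made by other cells, Fcer1g and Tyrobp by several kinds of leukocyte, and Ptprc, Cd53 and Laptm5 by leukocytes at large. In RNA from whole muscle, fewer cells of a type and less RNA per cell cannot be told apart.

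Several checks on the arrays come before the results. H2-K1, the class I gene used to check the induction, lay between 10.21 and 10.88 in controls, between 14.64 and 14.69 in early arrays and between 13.11 and 14.31 in late arrays, so every induced array was high. All 8 muscle fibre markers were bright, from 14.07 to 16.10 in every array. The library labelled late 1 stood apart. There, 6 of the 8 neutrophil markers on the array were above 5, against 0 of 8 in each of the other 8 arrays, among them S100a8, S100a9, Camp, Ngp, Mpo and Elane. S100a8 was at 13.94 in late 1 and between 2.55 and 2.94 elsewhere. The log2 of the summed neutrophil level was 15.10 in late 1 and between 5.49 and 5.62 in the other arrays, while Csf3r and Cxcr2 were under 5 everywhere. Genes of bone and of red cells, looked up after this was seen, did the same: Ibsp, a bone matrix protein, was at 10.10 in late 1 and between 2.74 and 2.91 elsewhere, and Slc4a1, the red cell anion exchanger, was at 9.55 against 3.83 to 5.01. T and NK cell markers were under 5 in every array (0 of 8). Late differences are therefore given without late 1 too where that array moved them most, and Gpnmb could not be tested without it.

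**Figure D1:**
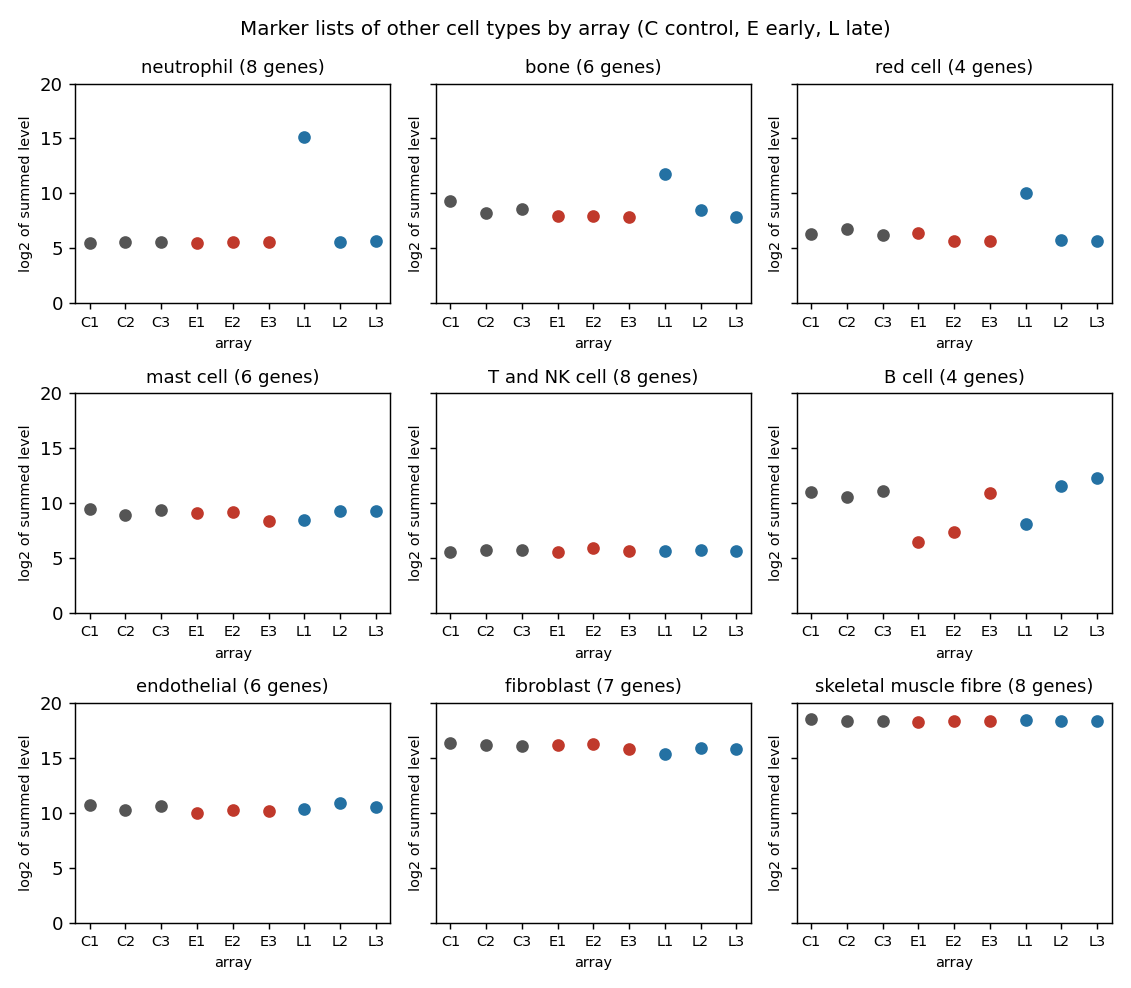
Log2 of the summed linear level of each marker list (vertical axis, log2 scale) in each of the 9 arrays (horizontal axis; C control, E early, L late, with the replicate number), 1 point per array. Neutrophil, bone and red cell lists are high in late 1 alone, at 15.10 for neutrophils, T and NK cell markers are low in all arrays, and the muscle fibre list is alike in all of them.

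The first comparison set early mice beside controls killed at the same age. In the early group, Cd68, Lgals3, Gpnmb, Clec7a and Mpeg1 had the largest differences from control of the set, but the 3 early arrays split: early 1 and early 2 lay far above the controls for these genes, and early 3 lay among or below them except for Clec7a and Gpnmb. Of the 25 genes tested, 22 were above the highest control in early 1 and 18 in early 2, but 2 in early 3, where 14 were below the lowest control. Over all genes tested, 37.3%, 34.3% and 20.9% were above the highest control in early 1, 2 and 3, and 34.8% were below the lowest in early 3. The median of the 25 genes over the control mean was 0.89, 0.69 and -0.22 in early 1, 2 and 3. Of 25 genes 0 passed the test in early mice, where 1.19% of all genes were called. At an unadjusted p under 0.05 there were 4 of 25, against 18.5% of all genes, which is no larger than the background. The group median of the 25 genes was 0.42, with 23 values positive and 2 negative, beside a median of -0.03 and 45.9% positive over all genes tested.

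**Figure D2:**
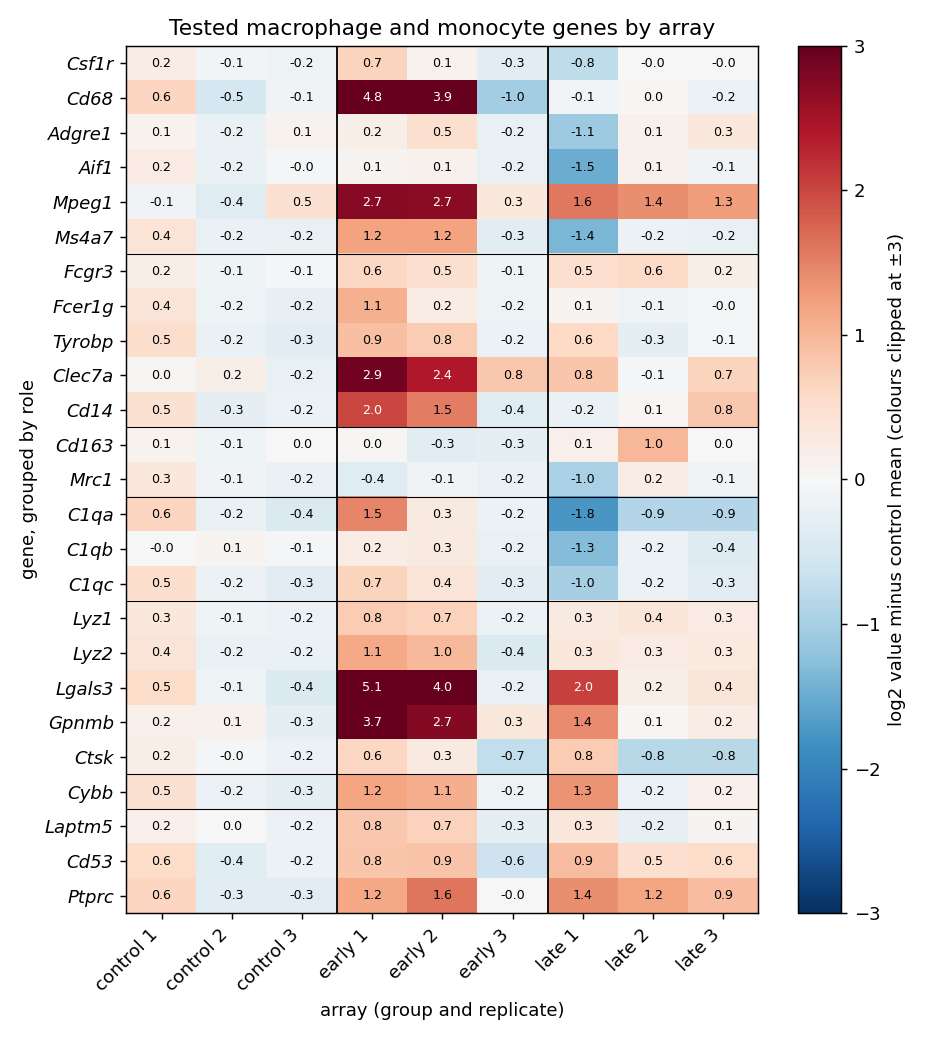
Log2 value minus the mean of the 3 controls for each of the 25 tested genes (rows, grouped by role) in each array (columns); red is above and blue below the control mean, with colours clipped at ±3. Early 1 and early 2 are red for most genes, up to 5.1 for Lgals3, while early 3 is pale or blue, and late 1 departs from late 2 and late 3 for Lgals3, Gpnmb, Cybb, Ctsk and the C1q genes.

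The genes that mark the lineage did not move as 1 block. Cd68, a membrane glycoprotein of lysosomes and endosomes in phagocytes, read 7.90, 6.74 and 7.15 in control 1, 2 and 3, 12.06, 11.17 and 6.23 in early 1, 2 and 3, and 7.17, 7.30 and 7.08 in late 1, 2 and 3. Early 1 and early 2 were thus far above every other array and early 3 was the lowest of the 9, so early and control arrays overlapped. The early difference was 2.55 ± 1.25 (5.87-fold; adjusted p = 0.305), with a group SD of 3.14. Mpeg1, a pore-forming protein of the phagocytic vacuole, read 5.30, 5.05 and 5.86 in controls, 8.13, 8.11 and 5.72 in early and 6.98, 6.81 and 6.66 in late arrays. Its early values overlapped the controls through early 3 (1.92 ± 0.58, adjusted p = 0.158). Ms4a7, a four-pass membrane protein of mature macrophages, was at 7.51 in both early 1 and early 2 and at 5.96 in early 3, against 6.71, 6.09 and 6.08 in controls. Its difference was 0.70 ± 0.47 (adjusted p = 0.438).

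Csf1r, Adgre1 and Aif1, all usual identifiers of tissue macrophages, stayed close to control in the same arrays. Csf1r, the receptor for the growth factors CSF1 and IL-34, was at 11.02, 10.44 and 10.01 in early 1, 2 and 3 against 10.57, 10.27 and 10.19 in controls (0.15 ± 0.29, adjusted p = 0.81). Adgre1, an adhesion G protein-coupled receptor of mature macrophages, differed by 0.14 ± 0.35 (adjusted p = 0.848). Aif1, an actin-binding protein also called Iba1, had the same mean of 5.83 in control and early mice. In early 1 and early 2 the deviation from the control mean thus ran from 0.1 to 0.7 for these genes, against 3.9 and 4.8 for Cd68. All 3 probe sets of Csf1r passed the filter and gave early differences of 0.15, 0.16 and 0.21.

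Promoters were read for the genes of the set that had a promoter window. Of the 31 genes, 25 had a window of 300 bases, from 250 before the start to 50 after it, in the RefSeq table of GRCm38.p6. Csf1r, Adgre1, Tyrobp, Cd14, Msr1 and C1qa had none. The letters of 2 motifs were searched on both strands: GAGGAAGT, a core bound by the myeloid factor PU.1, and TGANTCA, bound by AP-1 factors. The PU.1 core was found for 2 of 25 genes (C1qc and Cd53), against 3.69% of all genes in the table, and the AP-1 letters for 5 of 25 (Cd68, Cybb, Gpnmb, Ms4a7 and Trem2), against 8.97%. Lgals3, Clec7a and Mpeg1, high in early 1 and early 2, held neither. The matches of the 2 motifs fell in different genes, and those of tested genes that lie wholly before the start are shown here in 30 bases of context, 5′ to 3′ on the gene's strand, with the motif in capitals; the first stands for C1qc, with the PU.1 core on the other strand, and the rest hold the AP-1 letters.
C1qc, chr4:136893091-136893120, minus strand: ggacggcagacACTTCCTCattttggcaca
Cd68, chr11:69666301-69666330, minus strand: taagttccgtgTGAGTCAgctgcctcattc
Cd68, chr11:69666176-69666205, minus strand: gctgaggtgtcTGAGTCAggtttggggtgg
Ms4a7, chr19:11334758-11334787, minus strand: caggaacatttTGATTCAtgcaaactatat
Cybb, chrX:9469445-9469474, minus strand: ttacttgtgacTGAATCAcaagatcttttc
The motifs begin 195 bases before the start in C1qc, 149 and 24 in Cd68, 81 in Ms4a7 and 139 in Cybb. These are matches of letters only, and the arrays hold no measurement of binding.

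Among the receptors that recognise pathogens and debris, the lectin and the CD14 genes were the more variable. Clec7a encodes dectin-1, which binds fungal glucans. It read 5.34, 5.49 and 5.08 in controls, 8.20, 7.70 and 6.12 in early and 6.14, 5.25 and 5.97 in late arrays. All early values were above all controls, and the early difference of 2.03 ± 0.48 (4.09-fold) had the smallest adjusted p of the set, 0.0998. Cd14, the co-receptor for bacterial lipopolysaccharide, was at 7.19, 6.71 and 4.82 in early arrays against 5.64, 4.89 and 5.01 in controls, an overlap again set by early 3 (1.06 ± 0.56, adjusted p = 0.335).

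The Fc receptor genes and their adaptors differed less. Fcgr3, a low-affinity receptor for IgG, was at 8.32, 8.18 and 7.58 in early 1, 2 and 3 and between 7.57 and 7.90 in controls (0.32 ± 0.22, adjusted p = 0.44). Fcer1g, the signalling chain shared by Fc receptors, differed by 0.38 ± 0.30 and Tyrobp, the adaptor DAP12 that couples TREM2 and related receptors, by 0.49 ± 0.36 (adjusted p = 0.518 and 0.473). Tyrobp was at 9.58 and 9.46 in early 1 and 2 and at 8.51 in early 3, against 8.34 to 9.22 in controls. Fcgr1, the high-affinity IgG receptor, was not tested, with values above 5 in early 1 (5.04) and early 2 (5.51) alone. Trem2 lay between 3.14 and 3.56 in every array and was not tested.

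Scavenger and mannose receptors, which mark resident macrophages, did not share the high values of early 1 and early 2. Cd163, the receptor for haemoglobin bound to haptoglobin, was at 8.27, 7.89 and 7.95 in early and 8.33, 8.11 and 8.25 in control arrays (-0.19 ± 0.25, adjusted p = 0.694). Mrc1, the mannose receptor CD206, was at 9.56, 9.82 and 9.73 against 10.24, 9.81 and 9.73 (-0.23 ± 0.29, adjusted p = 0.695). They were the only tested genes of the set with a negative early difference. Msr1, a scavenger receptor for modified lipoprotein, lay between 4.31 and 4.81 and was not tested.

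Secreted and lysosomal products held the largest difference of the set. Lgals3 encodes galectin-3, a sugar-binding protein abundant in activated macrophages. It read 8.22, 7.52 and 7.27 in controls, 12.81, 11.69 and 7.45 in early and 9.71, 7.88 and 8.04 in late arrays. Early 1 and early 2 were the highest of the 9 and early 3 lay within the control range (2.98 ± 1.19, 7.89-fold, adjusted p = 0.236). Gpnmb, a membrane glycoprotein of lipid-laden macrophages, read 4.32, 4.30 and 3.86 in controls, 7.84, 6.90 and 4.49 in early and 5.58, 4.22 and 4.39 in late arrays. Early values did not overlap the controls (2.25 ± 0.74, adjusted p = 0.181), but all controls lay under the filter's floor of 5. Counted from that floor the difference was 1.58, and Gpnmb passed the filter through early 1, early 2 and late 1 alone, so its presence among tested genes depends on being high there. Clec7a and Gpnmb were the 2 of 25 genes whose early arrays all lay above the controls, where 9.63% of all genes did.

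Lysozyme, which digests bacterial cell walls, is encoded by the neighbouring and closely related genes Lyz2 and Lyz1. Lyz2 was at 11.74, 11.57 and 10.17 in early and 10.99, 10.40 and 10.40 in control arrays (0.56 ± 0.38, adjusted p = 0.441). For Lyz1 the difference was 0.42 ± 0.25 (adjusted p = 0.388) on a probe set of the kind that may read related transcripts. A second probe set of that kind, with a mean of 12.37, gave 0.43. The other Lyz1 probe set had a mean of 2.73 and an early difference of -0.01, so the probe sets disagree and the bright value is uncertain for Lyz1. Ctsk, the collagen-degrading protease cathepsin K, was at 8.78, 8.43 and 7.42 in early arrays (0.05 ± 0.47, adjusted p = 0.96). Cybb, the catalytic subunit of the phagocyte NADPH oxidase, was at 6.99, 6.90 and 5.66 against 6.27, 5.63 and 5.54 (0.70 ± 0.46, adjusted p = 0.43).

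Complement C1q, the recognition molecule of the classical complement pathway, is built from the products of C1qa, C1qb and C1qc, which lie side by side in the genome and are made largely by macrophages. In early arrays C1qa was at 9.80, 8.60 and 8.16 against 8.97, 8.12 and 7.88 in controls (0.52 ± 0.46, adjusted p = 0.552). The differences of C1qb (0.09 ± 0.28) and C1qc (0.24 ± 0.34) were smaller, with adjusted p = 0.883 and 0.726. Pan-leukocyte genes followed the split of the early arrays. Ptprc, which encodes CD45, was at 7.85, 8.29 and 6.68 against 7.33, 6.38 and 6.37 in controls (0.91 ± 0.41, adjusted p = 0.282), and Laptm5 and Cd53 differed by 0.41 ± 0.28 and 0.36 ± 0.40.

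Recruitment receptors were dim. Ccr2, the receptor that draws monocytes from blood, was at 4.81, 6.62 and 3.99 in early arrays, between 3.58 and 3.96 in controls and between 3.56 and 4.41 in late arrays, so 1 array was above 5 and the gene was not tested. Cx3cr1, the fractalkine receptor of patrolling monocytes, was at 4.69, 4.66 and 3.21 in early arrays and between 3.08 and 3.22 in all others. Itgam, the CD11b integrin chain, was under 5 everywhere, with its highest value, 3.62, in late 1. Values this low were compared with no test.

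Leaving out 1 array at a time gave 0 to 10 genes called in early mice, and 8 of the 9 omissions gave 0. Without early 3, 10 of 25 were called, all higher: Cd14, Cd68, Clec7a, Gpnmb, Laptm5, Lgals3, Lyz1, Lyz2, Mpeg1 and Ptprc. Early 3 was the lowest early array for each of these genes, so its omission raised them by construction. That omission also raised the share of all genes called from 1.19% to 18.1%, of which 9.97% were higher. Cd68 then differed by 4.35 ± 0.36 (adjusted p = 0.000499), Lgals3 by 4.58 ± 0.59 (adjusted p = 0.00234) and Mpeg1 by 2.72 ± 0.23 (adjusted p = 0.000603). These adjusted p values follow the removal of the lowest array and are no support for a rise. Csf1r (0.39), Adgre1 (0.33), Aif1 (0.11), Cd163 (-0.15) and Mrc1 (-0.24) did not pass there either. With arrays weighted by how well each fitted its group, 15 of 25 were called, all higher, where 34.4% of all genes were called and 18.4% were higher. That fit leaned mostly on early 2, with a weight of 2.84, against 0.376 for early 1 and 0.238 for early 3. In early 3 H2-K1 was at 14.69, as high as in the rest of its group, and nothing in the labels sets that array apart.

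**Figure D3:**
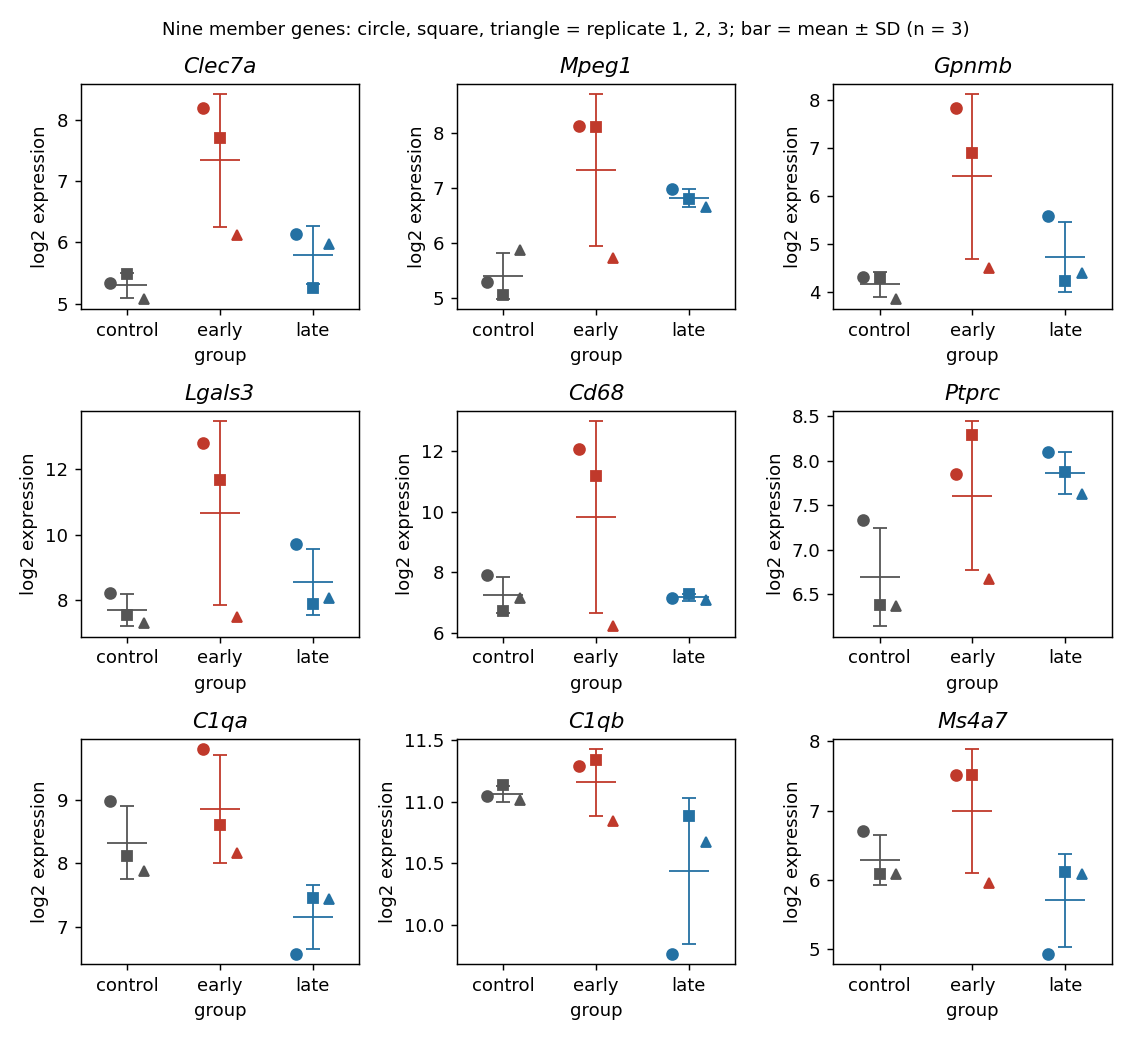
Log2 expression (vertical axes, scaled per gene) of 9 genes in control, early and late muscle; circle, square and triangle are replicates 1, 2 and 3, and the bar is the mean ± SD (n = 3). For Cd68 and Lgals3 early 1 and early 2 lie above 11 and early 3 lies within or below the controls, and for C1qa all late arrays lie below all others.

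The second comparison used those 3 controls again, now beside the older late mice. In late mice Mpeg1 and Ptprc lay above and C1qa and C1qb below all controls, and no gene of the set passed the test. Of 25 genes 0 were called by limma, where 0.206% of all genes were, and 3 of 25 had an unadjusted p under 0.05, against 17.3% of all genes. The median was 0.09, with 14 values positive and 11 negative, beside 0.01 and 51.2% positive over all genes. No overlap was seen for 2 of 25 genes upward, where the background is 16.0%, and for 2 downward, where it is 14.9%, so the set had no more such genes than the background.

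Mpeg1 was between 6.66 and 6.98 in the 3 late arrays, all above the highest control of 5.86 (1.41 ± 0.58, 2.66-fold, adjusted p = 0.269). Its late arrays were alike, with an SD of 0.16. Ptprc read 8.09, 7.87 and 7.62 in late 1, 2 and 3, also above every control (1.17 ± 0.41, adjusted p = 0.224). Cd53, a tetraspanin of leukocytes, was at 7.71, 7.28 and 7.34 against 7.33, 6.41 and 6.60 in controls (0.67 ± 0.40, adjusted p = 0.422; 0.53 ± 0.47 without late 1). Without late 1, Mpeg1 differed by 1.33 ± 0.68 and Ptprc by 1.05 ± 0.48, so the values changed little. Mpeg1 was called in late mice (adjusted p = 0.0402) when early 3 was left out, an array that enters this comparison only through the filter and the shared estimate of spread, and 0.599% of all genes were called there. With array weights 2 of 25 were called, Mpeg1 and Ptprc, where 10.7% of all genes were.

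None of the C1q genes passed in late mice. C1qa was at 6.57, 7.45 and 7.44 in late 1, 2 and 3, all under the lowest control of 7.88 (-1.17 ± 0.46, adjusted p = 0.25). C1qb was at 9.77, 10.88 and 10.67 against 11.04, 11.13 and 11.01 (-0.62 ± 0.28, adjusted p = 0.292), and its other probe sets gave -0.50 and -0.55. C1qc, at 6.84, 7.66 and 7.50, overlapped the controls (-0.51 ± 0.34, adjusted p = 0.461). Late 1 was the lowest of the 9 arrays for all 3 genes. Without it the differences were -0.88 ± 0.49, -0.29 ± 0.18 and -0.27 ± 0.34.

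The library labelled late 1, which held the neutrophil, bone and red cell RNA, stood apart from late 2 and late 3 in both directions among the genes of the set. It was the highest of the late arrays for Lgals3 (9.71), Gpnmb (5.58), Cybb (7.16), Tyrobp (9.29) and Ctsk (8.92), and the lowest for Csf1r (9.57), Adgre1 (6.59), Aif1 (4.33), Ms4a7 (4.93) and Mrc1 (8.95). Ctsk is abundant in osteoclasts, the bone-resorbing cells. Mmp9, which osteoclasts make but not they alone, was at 9.75 in that array against 4.30 to 6.58 elsewhere. Which cells the Ctsk and Mmp9 RNA of late 1 came from was not tested. Acp5, the osteoclast acid phosphatase, stood less apart, at 9.41 against 6.58 to 9.01. Without late 1 the late difference of Lgals3 went from 0.88 to 0.29, of Cybb from 0.45 to -0.01 and of Ctsk from -0.30 to -0.83, while that of Adgre1 went from -0.22 to 0.22 and that of Aif1 from -0.50 to 0.01. The differences of Mrc1, Tyrobp and Laptm5 also turned sign, from -0.28 to 0.07, from 0.09 to -0.16 and from 0.06 to -0.08. In all, 6 of 24 genes turned sign without late 1, with differences of at most 0.50 in size in either fit. None of these passed with or without the array, and without it 0.0932% of all genes were called. The part of the neutrophil, bone and red cell RNA in these values was not tested.

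Early and late mice were also compared directly, which asks whether the age at induction matters, though the late mice were older. C1qa was higher in early mice, at 9.80, 8.60 and 8.16 against 6.57, 7.45 and 7.44, without overlap (1.70 ± 0.46, 3.24-fold, adjusted p = 0.0468). It was the only gene of the 25 that passed, where 11.5% of all genes were called and 5.31% were higher in early mice, and the only one without overlap, where 13.7% of all genes were higher. At an unadjusted p under 0.05 there were 5 of 25, against 34.2% of all genes. These shares are below the background, so the call is not a result about the set. The call was lost in many other settings: adjusted p was 0.112 without late 1 (1.41 ± 0.49), 0.124 without early 1 (1.22 ± 0.39) and 0.0574 with the replicate number as a block. With that block 11.5% of all genes were called, with no filter 3.21% and with only the 2 groups fitted 0.522%. No gene of the set was among them in any of these settings. Leaving out any 1 of the other arrays, early 3 excepted, also ended it, with adjusted p between 0.0585 and 0.0962.

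**Figure D4:**
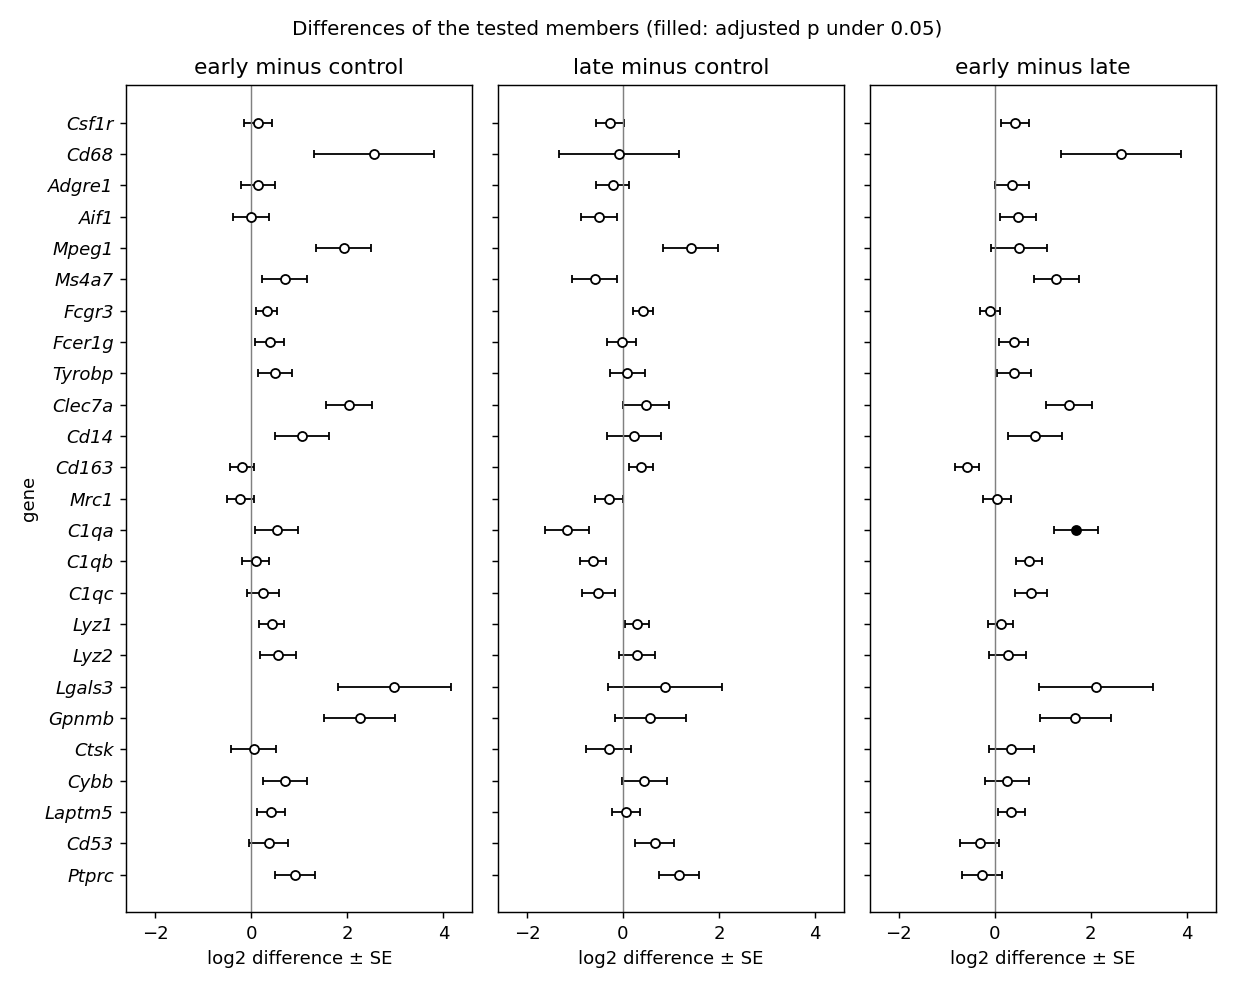
Log2 difference ± SE of the 25 tested genes (rows) in early minus control, late minus control and early minus late mice; filled points passed at an adjusted p under 0.05. One point is filled, C1qa in early minus late, and the bars are widest for Cd68 and Lgals3.

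Next to C1qa in that comparison stood Clec7a (1.55 ± 0.48, adjusted p = 0.0664), Ms4a7 (1.29 ± 0.47, adjusted p = 0.0962) and C1qb (0.71 ± 0.28, adjusted p = 0.11). Without late 1 these were 1.72 ± 0.55 (adjusted p = 0.0966), 0.90 ± 0.46 (adjusted p = 0.225) and 0.38 ± 0.18 (adjusted p = 0.199). Cd163 lay the other way (-0.58 ± 0.25, adjusted p = 0.139), with 9.22 in late 2 as its highest value, and differed by -0.70 ± 0.27 without late 1. Cd68 and Lgals3 had the largest differences, 2.64 ± 1.25 and 2.11 ± 1.19 (adjusted p = 0.169 and 0.238), again with early 1 and early 2 high, and 2.63 ± 1.49 and 2.69 ± 1.33 without late 1. The differences of Adgre1, Aif1 and Mrc1 turned sign without that array, from 0.36 to -0.07, from 0.50 to -0.0054 and from 0.05 to -0.29. Over the 25 genes the median was 0.40, with 21 values positive, beside -0.03 over all genes and 47.0% positive. Without early 3, 11 of 25 were called and all were higher in early mice: C1qa, C1qc, Cd14, Cd68, Clec7a, Gpnmb, Laptm5, Lgals3, Lyz2, Mpeg1 and Ms4a7. In that setting 30.6% of all genes were called and 15.9% were higher. Early 3 was the lowest early array for each of the genes called there too, so its omission raised them by construction. With array weights it was 15 of 25, of which 14 were higher, where 36.4% of all genes were called.

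Other genes of macrophage biology were read from fixed lists. Of 44 genes tested from these lists 0 passed against controls in early mice, where 1.19% of all genes did, and 0 in late mice, where 0.206% did. Between early and late mice 1 of 44 passed, below the 11.5% of all genes. Of 14 growth and recruitment signals 7 were tested, with a median of 0.41 in early and 0.45 in late mice (0.44 without late 1). Ccl9, a chemokine that attracts myeloid cells, was at 9.19, 9.14 and 8.24 in early 1, 2 and 3 against 7.98 to 8.50 in controls (0.64 ± 0.30, adjusted p = 0.29). Cx3cl1, the ligand of the dim receptor Cx3cr1, was not tested, and was at 6.52, 6.50 and 3.28 in early arrays and between 2.62 and 3.41 in all others. The growth factor Csf1 was between 7.25 and 7.44 in early arrays and between 7.42 and 7.67 in controls. The other ligand of Csf1r, Il34, was under 5 everywhere.

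Phagocyte lysosome genes showed the same early arrays high. Of 11 such genes 9 were tested and 8 were positive in early mice (median 0.38), beside 45.9% of all genes and a median of -0.03. Ctss, the cathepsin that trims the class II invariant chain, was at 11.03, 10.82 and 9.24 against 9.60 to 9.87 in controls (0.66 ± 0.41, adjusted p = 0.405), and Lgmn, another lysosomal protease, at 9.26, 9.23 and 7.83 (0.73 ± 0.38, adjusted p = 0.326). In late mice the list's median was -0.27, and -0.22 without late 1. Of 12 genes of resident and alternatively activated macrophages 9 were tested and 7 were negative in early mice (median -0.18) and in late mice (median -0.38, and -0.23 without late 1). Lyve1, a hyaluronan receptor of some resident macrophages and of lymphatic vessels, was lower in early than in late mice (-1.13 ± 0.28, adjusted p = 0.0378), at 7.03, 6.35 and 6.67 against 7.80, 8.33 and 7.30. It was the 1 gene of these lists that was called, and it was not called without late 1 (-1.13 ± 0.33, adjusted p = 0.0814). Of the 5 endothelial markers tested, Lyve1 among them, 4 had negative differences between early and late mice (median -0.59) and 5 between early mice and controls (median -0.46), and their part in this result was not tested. Folr2 and Cbr2, also of resident macrophages, were lowest in late 1, at 4.49 and 7.28.

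The remaining lists held no gene that passed. Of 8 myeloid transcription factors 5 were tested (early median 0.20, late median -0.20 and -0.04 without late 1). Irf8 was at 7.24, 7.41 and 6.43 in early arrays, and Spi1, which encodes PU.1, was under 5 in every array. Of 14 genes of leukocyte signalling and cytoskeleton 8 were tested, with early and late medians of 0.40 and 0.49 and all 8 positive in late mice. The list's median over the control mean was 1.07 in late 1 but 0.23 and 0.18 in late 2 and late 3. Without late 1, 7 genes were tested, 5 were positive and the late median was 0.28. Itgb2, the partner chain of CD11b, was highest in late 1, at 7.43 against 5.13 to 5.93 in the other 8 arrays. Of 4 partners of the NADPH oxidase 2 were tested, and Ncf1 was at 7.52 in late 1 against 5.57 to 5.93 elsewhere. Of 10 inflammatory and lipid-handling genes 4 were tested (early median -0.17, late median -0.89 and -0.57 without late 1), and Nos2, Il1b, Tnf, Il6 and Mmp12 were under 5 in every array.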

How the data were processed

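Per the labels' protocols, each of the 9 muscle RNA samples was reverse transcribed from oligo(dT), biotin-labelled and put on 1 array. Per the submitters' processing notes, the deposited log2 values are the output of GCRMA, whose version is not given in the sources used here. GCRMA corrects background by probe composition and makes the distributions of the arrays alike, so dim genes vary little and a shift of every gene at once is hidden; array medians lay between 3.41 and 3.45. Names of the 45101 probe sets came from the platform annotation (34958 named 1 gene, 932 several, 9211 none), and 0 symbols needed an update to GRCm38.p6.

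Probe sets naming 1 gene with a log2 value above 5 in at least 3 arrays were kept, and the one with the highest mean was taken per gene (9697 genes). The 3 group means were fitted to all 9 arrays with limma 3.58.1 (lmFit, eBayes) in R 4.3.3, with 6 residual and 2.84 prior degrees of freedom, and p values were adjusted by Benjamini-Hochberg over all genes; called means adjusted p under 0.05. All adjusted p values are from limma. Precision is limited by 3 arrays a group, whose replicates are not said to share or not share a litter or day, so a p value here reflects only the spread among these arrays. No exact permutation test was used, since its smallest p with 3 arrays a group is 0.1. The fit was tested on simulated data. The member genes and lists were chosen with earlier results of these data known, and the bone and red cell genes after the arrays were seen. Array values are given for members called, and for the 4 smallest p and 3 largest differences per comparison; those given for other genes were chosen after their values were seen. Same-numbered early and late arrays deviated together across genes (r = 0.168, 0.201 and 0.16), although no label says what they share. Unlike-numbered early and late arrays had lower r, between -0.211 and 0.0323. For same-numbered arrays r was 0.35, 0.11 and -0.0391 between early and control, and 0.0847, -0.165 and -0.11 between late and control. In the comparisons with controls some unlike-numbered pairs were as high, such as early 2 with control 3 (r = 0.257) and late 3 with control 2 (r = 0.222). The r values therefore do not establish pairs across the 3 groups, and a pairing of early with late arrays alone was not tested. The main fit had no block, and the replicate number as a block was 1 of the alternatives. Alternatives covered the filter, scaling, probe set choice, array weights, the block and each array left out.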

Additional observations from a re-analysis of the deposited data

Results flagged for a closer look

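C1qa was picked out because the 2 induced groups differed in a direct test: early minus late was 1.70 ± 0.46 on the log2 scale (adjusted p = 0.0468 by limma, higher in 3 of 3 early arrays than in any late array). Both groups differed from the shared controls in opposite directions, by 0.52 in early and by -1.17 in late mice, and neither of those passed. Over 20 alternatives its difference ran from 1.22 to 2.04, and the adjusted p from 0.0113 to 0.124. It stayed under 0.05 in 9 of them. Late 1, the array with neutrophil, bone and red cell RNA, had its lowest value.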

How the results depend on the processing

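The count of 0 genes called in early against control mice held under 10 other ways of processing all 9 arrays or the 2 groups compared (0.308% to 1.44% of all genes called), array weights excepted. Array weights were estimated from the same arrays with a fit that did not fully converge. They were 0.376, 2.84 and 0.238 for early 1, 2 and 3, so the weighted early mean rested mostly on early 2. Late 1 had a weight of 0.288. With these weights 15 were called in early against control, where 34.4% of all genes were, and 15 in early against late, where 36.4% were. In late against control 2 were called, where 10.7% were. The 1 gene called in early against late, C1qa, was not called with no filter (0), with only the 2 groups fitted (0) or with the replicate number as a block (0; adjusted p = 0.0574). The block changed no other call in the set. Leaving out 1 array gave 0 to 10, 0 to 1 and 0 to 11 genes called in the 3 comparisons in the order of the text; every count above 0 came without early 3. The medians then ran from 0.19 to 0.83, from -0.029 to 0.36 and from 0.15 to 0.74, and the late median moved most without control 1 (0.36). Among the 9 genes given by array in every comparison, signs turned for Cd68 in late against control, from -0.08 to 0.17 with array weights and to 0.24 without control 1 (range over single omissions -0.34 to 0.24), and for Ptprc in early against late, from -0.26 to 0.34 with array weights and to 0.21 without early 3 (range -0.60 to 0.21); none of these passed. With 3 arrays a group, differences of the size of most genes here are not resolved, and 6 of 31 genes were too dim to test.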

Other observations

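Some genes of other cells shared the split of the early arrays. Ncam1, an adhesion molecule of denervated and regenerating fibres, was at 9.62 in early 1, nearly as high in early 2 and at 6.30 in early 3, and between 6.04 and 6.34 in all control and late arrays. Pax7, of muscle stem cells, was at 3.99, 4.51 and 6.03 in early 1, 2 and 3 and between 5.73 and 6.64 in the others. Both stood on a list of 9 satellite and regenerating muscle cell genes. Its early differences were positive for 5 and negative for 4, with a median of 0.04. Of that list 1 gene was called lower in early and 2 in late mice, where 0.258% and 0.113% of all genes were. Ighm, the heavy chain of IgM, was at 6.05, 7.12 and 10.92 in early arrays, at 7.86 in late 1, and between 10.51 and 12.28 in the other arrays. Runx1, a transcription factor of blood and of denervated muscle, was not tested and was at 6.35, 6.44 and 3.72 in early arrays and between 3.81 and 4.88 elsewhere. The genes named here were chosen after their values were seen.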
